A study of Mus musculus with 4 samples.

Results

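Glycolysis genes and targets of the hypoxia-inducible factor (HIF) were followed in progenitor cells of mouse subcutaneous tissue with and without Gnas, the gene of the stimulatory G protein alpha subunit. The members were fixed by a list of 34 symbols: glycolytic enzymes with their regulators, glucose and lactate transporters, further HIF targets, and Hif1a itself. The table of 23930 amplicons held 29 of them. Gapdh, Pgk1, Pgam1, Eno1 and Bnip3l had no row among the values used and were not analysed here. The 29 were 17 glycolysis members (3 transporters, 11 enzymes and regulators from hexokinase to triosephosphate isomerase, and 3 enzymes of the lower pathway), 11 other HIF targets and Hif1a. The cells came from C57BL/6 mice carrying the floxed Gnas allele and were kept for 7 days in osteogenic medium after infection. The control group was infected with Ad-GFP, an adenovirus carrying green fluorescent protein, and is labelled wild type. The mutant group was infected with Ad-Cre, which carries the recombinase that deletes floxed DNA, and is labelled Gnas-/-. Each group had 2 libraries, called control 1, control 2, mutant 1 and mutant 2. The virus differs together with the genotype, and the effect of the virus and that of losing Gnas cannot be told apart. The labels name no promoter or cell type that would restrict the recombinase.

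Glycolysis splits glucose into pyruvate in the cytosol and yields ATP without oxygen. Glucose enters through facilitative transporters, hexokinase traps it, phosphofructokinase commits it to the pathway, and lactate dehydrogenase turns the pyruvate into lactate that leaves through monocarboxylate transporters. HIF is a pair of an oxygen-regulated alpha subunit and a stable beta subunit. With oxygen, the prolyl hydroxylases of the Egln family mark the alpha subunit for destruction, so its activity is set mostly through protein stability and is not read from the level of its messenger. Many glycolysis genes are HIF targets, as are genes of mitochondrial turnover, acid handling and vessel growth. Skeletal progenitors rely strongly on glycolysis when they form bone.

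HIF binds DNA at short sites with the core ACGTG or GCGTG. Promoter windows from RefSeq (build GRCm38.p6), the 250 bases before the start farthest upstream of each gene, were matched for 26 of the 29 members. Windows with either motif on either strand numbered 20 of 26 (76.9%), against 38.6% of 27025 genes with a window and 57.2% of 8854 genes tested here. For the glycolysis members it was 10 of 16 and for the other HIF targets 9 of 9. ACGTG alone was in 13 of 26 (50.0%), against 21.6% of the tested genes. The palindrome CACGTG holds ACGTG on both strands and counts as 2 overlapping matches. A match describes the letters in the window and does not show a bound site. The 5 windows printed here show a hexokinase pair in which only the first was lower in the mutants, a pair of other HIF targets with high levels in control 2, and Adm, the HIF target member that stood above both controls in the mutants. Capitals mark the motifs, which read CACGT or CACGC where they lie on the opposite strand. The windows are chr6:82774455-82774704 (minus strand) for Hk2, chr10:62379909-62380158 (minus) for Hk1, chr12:54203875-54204124 (minus) for Egln3, chr7:138909507-138909756 (minus) for Bnip3 and chr7:110627407-110627656 (plus) for Adm, each written 5′ to 3′ along its gene.
Hk2: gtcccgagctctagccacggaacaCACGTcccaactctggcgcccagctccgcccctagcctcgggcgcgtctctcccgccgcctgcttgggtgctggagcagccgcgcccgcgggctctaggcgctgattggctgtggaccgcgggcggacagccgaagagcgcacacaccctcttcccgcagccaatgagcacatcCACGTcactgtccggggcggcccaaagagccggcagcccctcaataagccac
Hk1: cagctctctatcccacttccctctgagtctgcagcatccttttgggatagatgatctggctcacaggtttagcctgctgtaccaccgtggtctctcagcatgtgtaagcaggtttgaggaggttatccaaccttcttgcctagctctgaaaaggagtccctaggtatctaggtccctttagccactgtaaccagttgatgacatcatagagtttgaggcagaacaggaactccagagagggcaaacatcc
Egln3: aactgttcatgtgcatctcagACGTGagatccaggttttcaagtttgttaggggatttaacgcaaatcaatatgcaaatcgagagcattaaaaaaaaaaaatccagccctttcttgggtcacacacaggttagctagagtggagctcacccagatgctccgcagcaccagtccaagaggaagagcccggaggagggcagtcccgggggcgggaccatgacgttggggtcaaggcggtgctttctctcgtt
Bnip3: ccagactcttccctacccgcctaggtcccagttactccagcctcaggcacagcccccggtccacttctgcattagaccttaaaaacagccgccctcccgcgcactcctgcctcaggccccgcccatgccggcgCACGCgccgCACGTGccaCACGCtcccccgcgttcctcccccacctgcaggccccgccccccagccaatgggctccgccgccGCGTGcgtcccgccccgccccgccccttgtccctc
Adm: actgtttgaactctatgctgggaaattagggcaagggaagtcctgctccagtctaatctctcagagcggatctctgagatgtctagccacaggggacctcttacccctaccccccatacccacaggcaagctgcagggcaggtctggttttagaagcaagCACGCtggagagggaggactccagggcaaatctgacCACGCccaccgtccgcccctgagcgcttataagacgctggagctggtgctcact
Hk2 held ACGTG at 226 and 52 bases before the start and the Hk1 window held neither motif. Other starts of a gene were not searched, so a window need not be the promoter used in these cells. Egln3 held a single ACGTG, at 229 bases. Bnip3 held 5 matches between 117 and 35 bases, and Adm held GCGTG at 90 and 54 bases. Of the other members whose window held neither motif, Gpi1, Aldoa, Eno2 and Pkm stood below both controls in the mutants, and Tpi1 did not. Pfkm and Adm, the members above both controls, each held a motif. Whether a motif goes with the direction of a member was not tested.

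Values are RPM, the reads of a gene's amplicon scaled to the same library total in every library. Whole reads recovered from the RPM steps gave 13483518 to 18455811 reads a library, so that 3 reads, the limit a count of 0 allows, are 0.163 to 0.222 RPM (counting error only). Each gene is read through 1 short target, so levels of different genes are not compared here, and reads of near-identical copies such as processed pseudogenes may be split in a way the sources used here do not describe. No row was named Gnas, so the genotype was not checked by the targeted gene. Whole libraries correlated less between the controls than between the mutants (Pearson's r across tested genes 0.916 between the controls, 0.981 between the mutants, 0.885 to 0.909 across groups, a description over genes). Xist, expressed from the inactive X of females, was at 165 and 0 RPM in controls 1 and 2, against 395 and 419 RPM in the mutants, so control 2 held no read of it. The Y-linked Ddx3y had reads in all 4 libraries (61.4, 124, 26.9 and 12.5 RPM in the order control 1, control 2, mutant 1, mutant 2). Of 12 measured stromal markers 10 were at 1 RPM or more in every library. Their sums were 17665 and 25260 RPM in the controls and 35403 and 39782 RPM in the mutants. Much of the rise was Col1a1 (5332 and 9875 against 16666 and 21009 RPM) and Col1a2 (3843 and 3184 against 7507 and 7512 RPM). Dcn stood below both controls (525 and 760 against 471 and 316 RPM), and Pdgfrb, Col3a1 and Vim lay between them. The sums therefore do not give the share of stromal cells. Keratinocyte and red cell markers were near 0 in all libraries. The 18 macrophage markers summed to 87.5 RPM in control 1 and 1098 RPM in control 2, and to 35.0 and 21.6 RPM in mutants 1 and 2, with 15 of 18 highest in control 2. Lyz2 alone held 822 RPM of the sum in control 2 and 33.9 RPM of that in control 1. The markers C1qa, C1qb and C1qc, under 1 RPM in every library, were not highest in control 2. Adgre1 and Spi1 were at 0 in every library but control 2, where they stood at 1.71 and 6.82 RPM. Cd53 was at 35.6 and 37.5 RPM in the controls and 1.26 and 0.943 RPM in the mutants. Aif1 was at 0 and 4.15 RPM in controls 1 and 2, and at 3.49 and 3.64 RPM in the mutants. Endothelial markers summed to 11.8, 92.2, 24.4 and 46.9 RPM in that order of libraries, and 7 of 8 cycling cell markers were highest in control 2. These cells are measured in bulk, so fewer cells of a type and less RNA per cell cannot be told apart. The labels do not say whether libraries came from separate mice or cultures, so the p-values speak of the spread among these 4 libraries. Between the mutants that spread may be technical. The controls differed in Xist (165 and 0 RPM), so they were not repeat readings of the same RNA. Both mutants also stood above both controls for Xist and below both for Ddx3y. Whether sex plays a part in the other differences, between the controls or between the groups, was not tested.

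Most members had lower values in the mutant libraries than in the controls, but control 2 set much of the distance. Control 2 held the highest value of 26 of the 29 members, and control 1 of none. Among the 28 members that reached 1 RPM in at least 2 libraries and were tested, 27 were higher in control 2 than in control 1 (42% of all 11638 tested genes were), 22 by over 2-fold (9.98% of tested genes) and 10 by over 4-fold (4.36%). In both mutants 15 of the 28 stood below both controls (21.1% of tested genes) and 2 stood above both (30.6%). The mutants stood between the controls for 7 (20.2%). Only Hk2 passed the test of mutant against control (limma adjusted p below 0.05), 1 of 28, against 0.576% of tested genes called lower, and 0 members were called higher (1.73% of tested genes). At an unadjusted p below 0.05 the limma test gave 10 members lower (6.01% of tested genes) and 0 higher (11.9%). At an adjusted p below 0.05 edgeR called 0 members lower and DESeq2 13 (27 and 493 of all tested genes). Both called 0 members higher. On the log2(RPM + 1) scale, which understates the change of low genes, the median log2 fold change was -1.18 over the members and 0.08 over all tested genes. Ankrd37 did not reach the filter and is described by its values. Car9 reached it only through the controls, so its direction was fixed by that filter. It remains in the counts and medians given here and below. The mutant libraries lay close together, with no member differing by over 2-fold between them, and Bnip3 furthest apart at 1.92-fold.

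**Figure D1:**
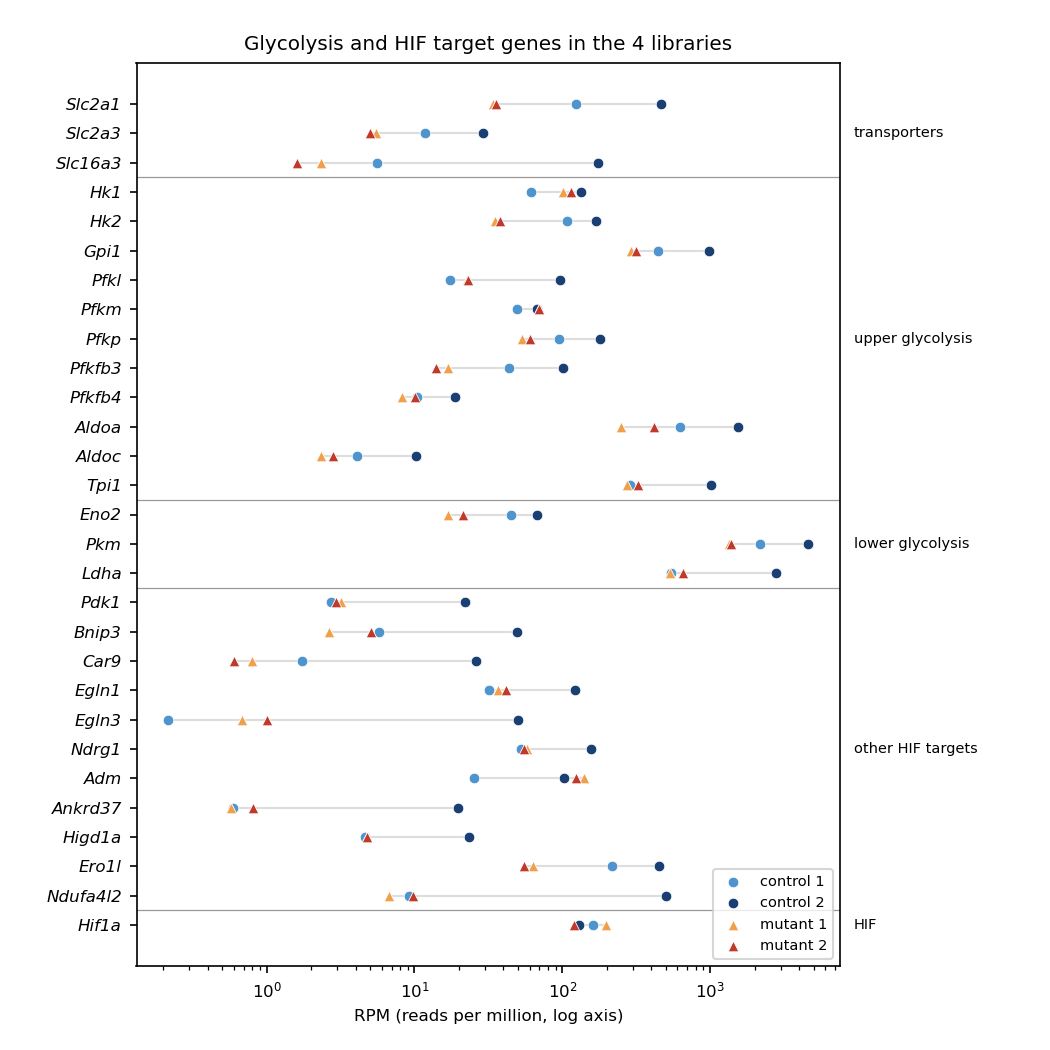
RPM of the 29 measured members (rows, grouped by role) on a log axis. Circles are the 2 control libraries and triangles the 2 mutant libraries, and grey lines span the 4 values. Control 2 is rightmost for 26 of the 29 genes, while control 1 lies next to the mutants for many of the other HIF targets.

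All 3 transporters stood lower in both mutants than in both controls, as did 21.1% of tested genes, and none passed the pooled test. Slc2a1 encodes GLUT1, the main glucose carrier of most growing cells. It stood at 124 RPM in control 1 and 464 RPM in control 2, and at 33.7 and 35.4 RPM in mutants 1 and 2. The groups did not overlap, and the mean ratio was 8.52-fold (294 ± 241 against 34.5 ± 1.15 RPM, SD, n = 2 per group, log2 fold change -2.76, SE 0.62, limma adjusted p = 0.109). The neuronal-type glucose carrier Slc2a3 stood at 11.8 and 29.1 RPM in controls 1 and 2, against 5.50 and 4.98 RPM in the mutants (log2 fold change -1.66, limma adjusted p = 0.176). Slc16a3 encodes MCT4, which exports lactate from glycolytic cells. It stood at 5.58 RPM in control 1 and at 175 RPM in control 2, and the mutants at 2.35 and 1.62 RPM were 2.82-fold below the first and 88.2-fold below the second (limma adjusted p = 0.310). These 3 genes lie on chromosomes 4, 6 and 11, at 119108711 to 119137983, 122727809 to 122801640 and 120948480 to 120960868 of GRCm38 (GENCODE M21 gene bounds, not amplicon positions).

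The hexokinases, which start glycolysis by phosphorylating glucose, differed in pattern. Hk2, the inducible form, fell from 108 RPM in control 1 and 169 in control 2 to 35.2 in mutant 1 and 38.1 in mutant 2. This was a 3.78-fold lower mean (138 ± 43.3 against 36.7 ± 2.05 RPM), with a log2 fold change of -1.85 (SE 0.28, limma adjusted p = 0.0477). The gene lies on chromosome 6 at 82725025 to 82774454 of GRCm38, minus strand. The call is a narrow one: over the alternatives the adjusted p ran from 7.81e-06 with DESeq2 to 0.611 with mutant 2 left out, and it was above 0.05 with TMM scaling (adjusted p = 0.0556) and with either mutant left out, where 0 of all tested genes were called lower. Hk1, the constitutive form, stood at 61.8 and 134 RPM in controls 1 and 2, against 101 and 115 RPM in the mutants. Its mutant values lay between the controls (log2 fold change 0.25, SE 0.40, limma adjusted p = 0.788).

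Gpi1 encodes the isomerase that follows hexokinase. It stood at 446 and 977 RPM in controls 1 and 2, against 291 and 313 RPM in the mutants, without overlap (log2 fold change -1.12, limma adjusted p = 0.249). Phosphofructokinase is built from 3 subunit forms, and these differed in pattern. The platelet form Pfkp stood at 95.2 and 181 RPM in controls 1 and 2, against 53.6 and 60.6 RPM in the mutants (log2 fold change -1.19, limma adjusted p = 0.178). The liver form Pfkl stood at 17.4 RPM in control 1, 96.6 in control 2, and 22.6 and 23.0 in the mutants, which sat close to control 1 and above it (limma adjusted p = 0.626). Muscle-type Pfkm stood at 49.7 and 67.6 RPM in controls 1 and 2, against 69.8 and 70.0 RPM in the mutants (log2 fold change 0.27, 95% interval -0.35 to 0.88 by limma).

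Pfkfb3 and Pfkfb4 make fructose 2,6-bisphosphate, the strongest activator of phosphofructokinase. Pfkfb3 stood at 43.3 and 102 RPM in controls 1 and 2, against 16.9 and 14.0 RPM in the mutants, a 4.69-fold lower mean (log2 fold change -2.04, SE 0.44, limma adjusted p = 0.104). Pfkfb4 stood at 10.5 and 18.7 RPM against 8.25 and 10.1 RPM, so that mutant 2 all but reached control 1. Among the aldolases, which split the 6-carbon sugar, Aldoa stood at 625 and 1547 RPM against 251 and 416 RPM (limma adjusted p = 0.204). The brain-type form Aldoc stood at 4.06 and 10.3 RPM against 2.35 and 2.83 RPM (limma adjusted p = 0.329). Tpi1, which interconverts the resulting trioses, differed in pattern: control 1 at 287 RPM lay between the mutants at 275 and 326 RPM, and control 2 alone was high at 1008 RPM.

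In the lower pathway Eno2 and Pkm stood below both controls and Ldha did not. Eno2, the enolase form known from neurons, stood at 45.1 and 67.6 RPM in controls 1 and 2, against 16.8 and 21.3 RPM in the mutants, a 2.96-fold lower mean (log2 fold change -1.50, SE 0.30, limma adjusted p = 0.0891). Pkm, the pyruvate kinase of the last step, stood at 2166 and 4590 RPM against 1336 and 1393 RPM (log2 fold change -1.21, limma adjusted p = 0.249). Its amplicon value does not separate splice forms here. Ldha, which makes lactate from pyruvate, stood at 540 RPM in control 1 and 2781 RPM in control 2, and at 534 and 651 RPM in mutants 1 and 2. Control 1 lay between the mutants, and the ratio to the mutants came from control 2 (4.69-fold above them).

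Many of the other HIF targets stood near the level of control 1 in the mutants, with control 2 far above. Ndufa4l2, which replaces a subunit of the respiratory chain in hypoxia, was at 9.16 RPM in control 1 and 504 RPM in control 2, and at 6.70 and 9.77 RPM in mutants 1 and 2. Control 2 was 55.1-fold above control 1. Egln3, an oxygen-sensing prolyl hydroxylase that is itself a strong HIF target, was at 0.217 RPM (4 reads) in control 1, 50.4 RPM in control 2, and 0.687 and 1.01 RPM in the mutants. Its sister gene Egln1 was at 31.9, 121, 36.7 and 41.6 RPM in the same order. Ankrd37, a small ankyrin repeat gene, was at 0.596, 19.7, 0.573 and 0.808 RPM. In each of these 4 genes control 2 alone was far above the other 3 libraries. Control 1 was the lowest library for Egln3 and Egln1 and lay between the mutants for Ndufa4l2 and Ankrd37.

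Pdk1 encodes a kinase that blocks the entry of pyruvate into the citrate cycle. It was at 2.71 and 21.9 RPM in controls 1 and 2, against 3.21 and 2.96 RPM in the mutants, just above control 1. Higd1a, a mitochondrial inner membrane protein gene induced in hypoxia, was at 4.66 and 23.5 RPM against 4.81 and 4.78 RPM. Ndrg1, a stress-responsive gene, was at 52.5 and 157 RPM against 57.3 and 54.8 RPM. For these 3 genes the mutants lay between the controls and close to control 1.

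Among the 10 tested other HIF targets 3 stood below both controls, against 21.1% of tested genes. Ero1l, an oxidase that forms disulfide bonds in the endoplasmic reticulum, was the target with the smallest p. It stood at 217 and 452 RPM in controls 1 and 2, against 63.4 and 55.5 RPM in the mutants, a 5.63-fold lower mean (log2 fold change -2.38, SE 0.38, limma adjusted p = 0.0533, 9.34e-07 to 0.642 over the alternatives). The groups did not overlap, and the gene lies on chromosome 14 at 45283087 to 45318771 of GRCm38. Bnip3, which drives removal of mitochondria, was at 5.74 and 49.5 RPM against 2.64 and 5.05 RPM. Car9, the carbonic anhydrase that handles acid at the cell surface, was at 1.73 and 26.3 RPM against 0.802 and 0.606 RPM. For both, the mutants were below both controls by a small step from control 1 and a large one from control 2. For Bnip3 the limma adjusted p was 0.367. Car9 passed the filter through the controls alone, which fixed its direction, so its p-value is not given.

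Adm, which encodes the vasodilator peptide adrenomedullin, was the only HIF target member above both controls in the mutants. It stood at 25.3 RPM in control 1 and 102 RPM in control 2, and at 141 and 125 RPM in mutants 1 and 2. The pooled difference did not pass (log2 fold change 1.36, SE 0.64, limma adjusted p = 0.354). Adrenomedullin acts through a receptor coupled to the Gs protein.

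Hif1a itself, the oxygen-regulated alpha subunit, was at 161 RPM in control 1 and 130 RPM in control 2, and at 196 and 121 RPM in mutants 1 and 2. The groups overlapped fully, the library with the highest HIF target values was not the highest for Hif1a, and the log2 fold change was 0.09 (SE 0.30, 95% interval -0.68 to 0.86 by limma).

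Set against each control alone, with limma and the other control left out, far more members were lower than control 2 than were lower than control 1. The lone control is then assumed to vary like the mutant pair, which these data do not bear out. Over the tested members the median ratio of control 2 to control 1 was 2.76-fold. That of the higher to the lower mutant was 1.14-fold. The adjusted p of these comparisons are therefore likely too small, and the comparisons share the mutants. Against control 1, 5 of 28 were lower (6.82% of tested genes): Slc2a1, Hk2, Pfkfb3, Eno2 and Ero1l, with log2 fold changes of -1.82, -1.53, -1.44, -1.21 and -1.86 (limma adjusted p = 0.00206, 0.00388, 0.0123, 0.0230 and 0.00174). Hk1 (0.80, limma adjusted p = 0.0384) and Adm (2.34, limma adjusted p = 0.000806) were the 2 called higher (9.15% of tested genes). Against control 2, 23 of 28 were lower (6.89% of tested genes) with log2 fold changes from -5.89 (Slc16a3) to -1.47 (Ndrg1), and 0 were higher (13.8%; 0 also at an unadjusted p below 0.05, against 23.8%). The 5 not lower were Hk1, Pfkm, Pfkfb4, Adm and Hif1a. Control 2 was the library with 1098 RPM of macrophage markers, 822 RPM of it from Lyz2. The part of macrophages in this difference was not tested.

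Both the glycolysis members and the other HIF targets were farther from control 2 than from control 1, and their medians against control 1 were not alike. For the 17 glycolysis members the median log2 fold change was -0.67 against control 1 and -1.78 against control 2. For the 10 tested other HIF targets it was 0.06 against control 1 and -2.70 against control 2. Over all tested genes these medians were 0.02 and 0.14. The mutants stood below both controls for 12 of 17 glycolysis members and for 3 of 10 other HIF targets (21.1% of tested genes). The 3 were Bnip3, Ero1l and Car9, and the filter fixed the direction of Car9. Control 2 exceeded control 1 by over 4-fold for 4.36% of tested genes. It did so for 3 of 17 glycolysis members (Slc16a3, Pfkl and Ldha) and for 7 of 10 other HIF targets. In the pooled comparison the medians were -1.19 and -1.58, so the order of the groups depended on the control used. These are descriptions of chosen lists and carry no test.

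**Figure D2:**
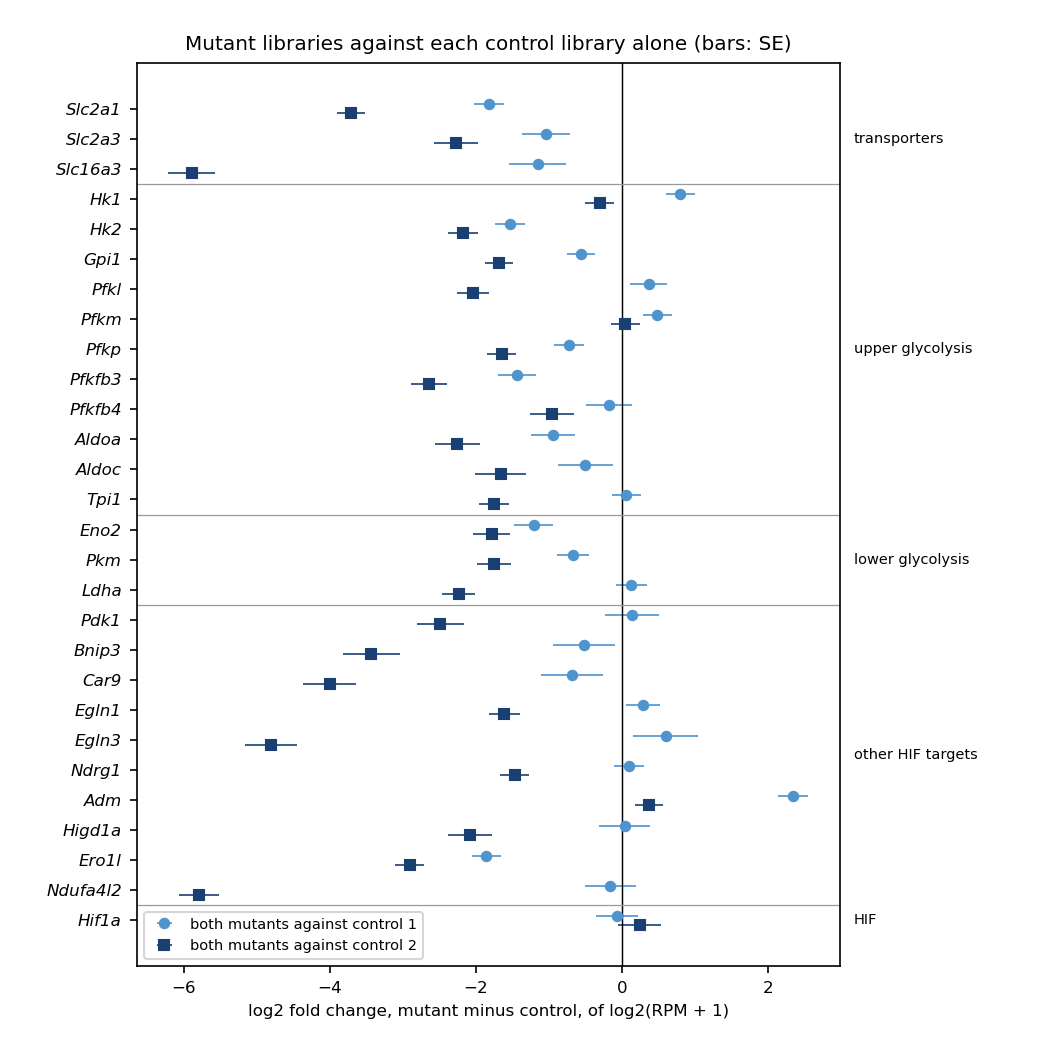
Log2 fold change of the 28 tested members (rows, grouped by role) on the log2(RPM + 1) scale, for both mutants against control 1 alone (circles) and against control 2 alone (squares), with bars for the SE from limma. Squares lie left of circles for every member but Hif1a. Among the other HIF targets the circles of Pdk1, Egln1, Ndrg1, Higd1a and Ndufa4l2 sit nearest 0, and those of Ero1l and Adm farthest from it.

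Ratios of related genes within a library do not depend on how libraries are scaled, and 7 were compared, chosen after their values were seen. Hk2 over Hk1 was 1.74 in control 1 and 1.26 in control 2 but 0.347 and 0.330 in the mutants, 4.38-fold lower by the geometric means of the groups. Pfkp over Pfkm was 1.92 and 2.67 in the controls and 0.768 and 0.866 in the mutants. Slc16a3 over Slc16a1, the exporter over the more widely expressed lactate carrier, was 0.0528, 3.45, 0.101 and 0.0581 in control 1, control 2, mutant 1 and mutant 2, so control 2 alone stood apart. Egln3 over Egln1 likewise placed the mutants (0.0187 and 0.0243) between control 1 (0.00681) and control 2 (0.415). Pfkl over Pfkm was 0.351 in control 1, 1.43 in control 2, and 0.323 and 0.328 in the mutants, just under control 1. No test is given for these chosen ratios, and an exact two-sided permutation test of 2 against 2 libraries cannot go below p = 0.333. Such a ratio shows unequal change of a gene pair and not that either gene was constant.

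**Figure D3:**
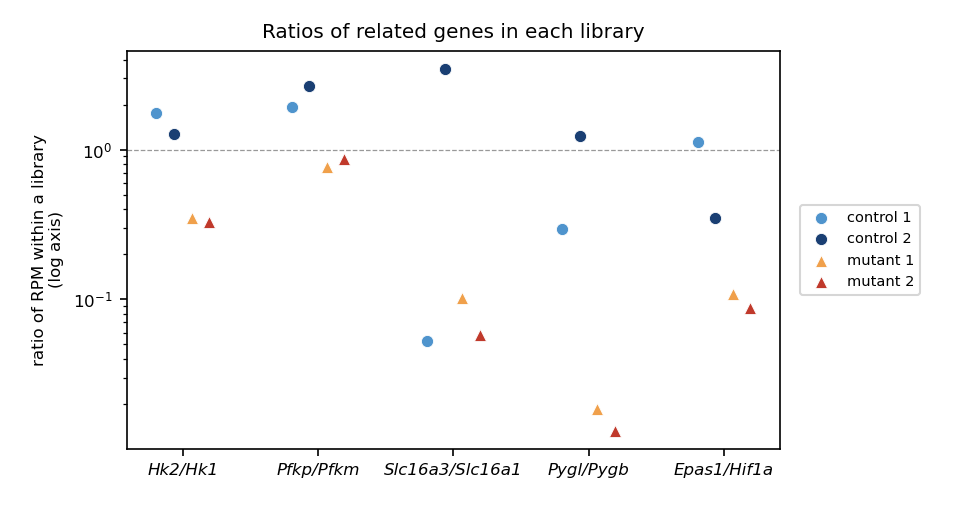
Ratio of the RPM of related genes within each library on a log axis, for 5 of the gene pairs. Circles are controls, triangles are mutants, and the dashed line marks equal values. Both mutants lie below both controls for Hk2/Hk1, Pfkp/Pfkm, Pygl/Pygb and Epas1/Hif1a, and between the controls for Slc16a3/Slc16a1.

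Other genes of these pathways came from lists drawn up beside the members. Of 17 tested further genes of glycolysis and pyruvate use, 0 were lower and 0 higher by limma (0.576% and 1.73% of tested genes). At an unadjusted p below 0.05, 1 was lower and 3 were higher (6.01% and 11.9% of tested genes). Their median log2 fold change was 0.42. Slc16a1 (MCT1) stood at 106 and 50.7 RPM in controls 1 and 2, against 23.1 and 27.8 RPM in the mutants (limma adjusted p = 0.149). Its order of the controls was opposite to that of Slc16a3. Bpgm, the enzyme of a glycolytic side branch, stood at 11.6 and 14.1 RPM against 28.9 and 22.8 RPM, and Pdp1, the phosphatase that switches pyruvate dehydrogenase on, at 24.7 and 20.1 RPM against 39.8 and 38.7 RPM (limma adjusted p = 0.187 and 0.196). Pgam2, a muscle mutase, stood at 0.217 and 0.148 RPM against 1.72 and 2.09 RPM and passed the filter through the mutants alone, which fixed its direction.

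Of 23 tested further HIF targets 1 fell and 0 rose, against 0.576% and 1.73% of tested genes. At an unadjusted p below 0.05 by limma, 6 were lower and 1 higher, against 6.01% and 11.9%. The median log2 fold change was -0.80, with -0.13 against control 1 and -1.47 against control 2. Both mutants stood below both controls for 11 genes and above both for 3 (21.1% and 30.6% of tested genes). The genes named here had the smallest p and were all lower. Hmox1, which encodes the heme-degrading enzyme heme oxygenase and responds to oxidative stress as well as to HIF, fell from 836 and 702 RPM to 263 and 180 RPM (log2 fold change -1.81, SE 0.27, limma adjusted p = 0.0467, 1.82e-07 to 0.642 over the alternatives). Bhlhe40, a transcriptional repressor of the clock, stood at 366 and 447 RPM against 148 and 97.1 RPM, and the nuclear receptor gene Rora at 40.6 and 39.8 RPM against 12.7 and 6.33 RPM (limma adjusted p = 0.0549 and 0.0721). In Hmox1, Bhlhe40 and Rora the controls lay close together, Bhlhe40 furthest apart at 1.22-fold. The vessel growth factor gene Vegfa stood at 208 and 624 RPM against 68.2 and 44.9 RPM (limma adjusted p = 0.0941).

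None of 7 tested HIF factor and oxygen-sensing genes passed by limma (1 lower and 0 higher at an unadjusted p below 0.05, against 6.01% and 11.9% of tested genes). That gene was Epas1, which encodes HIF-2 alpha. It stood at 182 RPM in control 1 and 45.7 RPM in control 2, and at 21.4 and 10.6 RPM in mutants 1 and 2 (log2 fold change -2.52, SE 0.71, limma adjusted p = 0.168). Among the controls Epas1 was higher in control 1, the opposite of the order in 27 of the 28 tested members. Epas1 over Hif1a was 1.13 and 0.352 in the controls and 0.109 and 0.0875 in the mutants. The beta subunit gene Arnt stood at 49.2 and 41.3 RPM against 42.8 and 38.5 RPM, its relative Arnt2 at 18.1 and 3.41 RPM against 14.8 and 21.1 RPM, and the hydroxylase gene Egln2 at 69.1 and 46.3 RPM against 44.5 and 42.0 RPM.

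Of 14 tested genes of the pentose phosphate pathway and of glucose storage or return, 1 fell and 0 rose, against 0.576% and 1.73% of tested genes (7 lower and 1 higher at an unadjusted p below 0.05, against 6.01% and 11.9%), with a median log2 fold change of -0.52. The liver-type glycogen phosphorylase gene Pygl fell from 18.3 and 36.9 RPM to 2.58 and 2.49 RPM, a 10.9-fold lower mean (log2 fold change -2.93, SE 0.42, limma adjusted p = 0.0416, 2.11e-08 to 0.611 over the alternatives). The brain-type form Pygb stood at 61.8 and 30.1 RPM in controls 1 and 2, against 140 and 188 RPM in the mutants (log2 fold change 1.89, limma adjusted p = 0.0941). Pygl over Pygb was 0.296 and 1.22 in the controls and 0.0184 and 0.0132 in the mutants. The pentose phosphate enzymes Pgd (305 and 196 RPM against 96.4 and 117 RPM) and Taldo1 (158 and 96.9 RPM against 49.3 and 52.7 RPM) did not overlap between the groups (limma adjusted p = 0.121 and 0.116). For both of these control 1 was the higher control. Neither Pygl nor Hmox1 was called with either mutant left out, with edgeR (adjusted p = 0.0578 and 0.0653) or with no filter on low values (0.0928 and 0.0903). The Hmox1 call was also lost without the intensity trend (0.0678) and with a pseudocount of 0.5 RPM (0.0503), and the Pygl call with one of 5 RPM (0.0525).

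**Figure D4:**
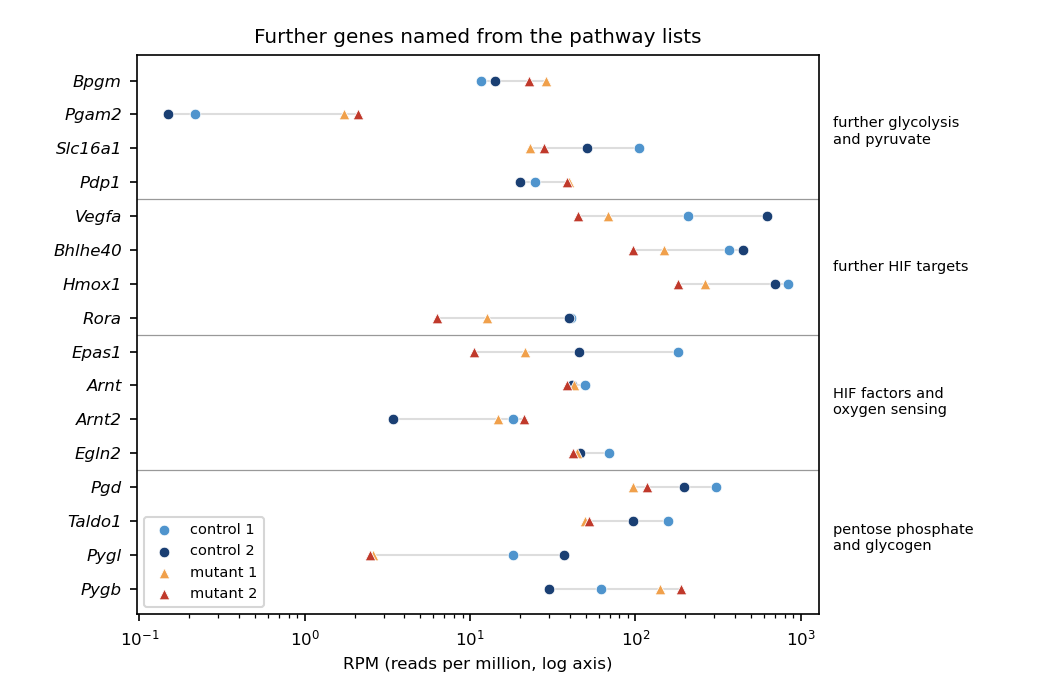
RPM of the 16 further genes named from the pathway lists (rows, grouped by list) on a log axis, with circles for controls and triangles for mutants. Hmox1 and Pygl, the 2 genes that passed the test, have both mutants left of both controls. Epas1, Slc16a1, Pgd and Taldo1 are highest in control 1.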

How the data were processed

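Messenger RNA of 4 libraries was read with an amplicon panel (Ion AmpliSeq Transcriptome Mouse Gene Expression, per the labels' protocols). The authors deposited 1 table of RPM values (depth-scaled reads) for 23930 amplicons. For the aligner, the counter and the genome build, nothing was given in the sources used here. Gene names came from the amplicon names, since 27 names had become dates. Whole reads were recovered from the RPM steps for 100% of values (within 0.01 read beyond rounding). Limma 3.58.1 (R 4.3.3) with an intensity trend was fitted to log2(RPM + 1) for the 11638 genes at 1 RPM or more in at least 2 libraries, with p-values adjusted by Benjamini-Hochberg over all of them, for the mutants against both controls and against each control alone. A gene was called at an adjusted p below 0.05. On the recovered reads edgeR 4.0.16 (quasi-likelihood) called 27 genes lower and 66 higher, and DESeq2 1.42.0 called 493 and 598. The limma fit alone, not edgeR or DESeq2, was run on simulated reads, with the spread estimated from these data and with a smaller one. The outcome is not given here. Scaling, filter, pseudocount, trend, replicate block and left-out libraries were varied. All members are named, and from each further list the genes called plus up to 4 with the smallest p. The members and lists were chosen with earlier results of these data known. Groups and replicate numbers follow the labels. Marker lists covered stromal, macrophage, endothelial, adipocyte, muscle, keratinocyte, red and cycling cells. Adipocyte markers (8) summed to 101 and 109 RPM in the controls and 136 and 141 in the mutants, and muscle markers (10) to 60.0 and 120 against 53.3 and 133 RPM.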

Additional observations from a re-analysis of the deposited data

How the results depend on the processing

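The test called 1 member lower. DESeq2 on the recovered reads called 13, the replicate block 4, and the 5 RPM filter and quantile scaling 2 each. TMM scaling, median-of-ratios scaling, edgeR, no filter, no intensity trend and a pseudocount of 0.5 RPM called 0. Leaving out 1 library gave 0 to 23 members lower and 0 to 2 higher, with 23 lower without control 1, 5 without control 2 and 0 without either mutant. Over all genes, 67 were called lower: 493 by DESeq2, 27 by edgeR, 18 with no filter, 123 with the block and 0 to 802 with 1 library left out. The 201 called higher became 598, 66 and 56 by DESeq2, edgeR and no filter, and 0 to 1609 with 1 library left out. The cause was not tested.

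The labels do not say that a replicate number marks a shared animal or batch, and with 2 pairs the correlation of same-numbered libraries' deviations (0.164) does not settle whether they are paired. With the replicate block, Hk2, Slc2a1, Aldoa and Ero1l were called lower among the members, and Bhlhe40, Rora and Epas1 among the further genes. No named gene changed sign under TMM, median-of-ratios or quantile scaling. The median of all genes was 0.08 as tested and -0.03 with quantile scaling. With 1 library left out the median log2 fold change of the glycolysis members ran from -1.78 to -0.67 and that of the other HIF targets from -2.70 to 0.06, so the sign of the latter turned without control 2. Depth limits the lowest values, such as that of Egln3 in control 1, which rests on 4 reads.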
